A study of Mus musculus with 2 samples.

Results

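The nuclear genes that encode the structural subunits of respiratory complexes III, IV and V and cytochrome c were examined in a mouse erythroid cell line. Members were all genes whose symbol begins with Uqcr, Cox4i, Cox5, Cox6, Cox7, Cox8 or Atp5, together with Cyc1 and Cycs, and excluding symbols that contain "-ps". The rule uses names only and found 46 of the 43346 mouse genes in the tables: 9 of complex III, 1 for cytochrome c, 19 of complex IV and 17 of complex V. Another identifier that carries the symbol Atp5o was not analysed here.

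The cells were G1E-ER4, an immortalised male mouse line of erythroid progenitors, held in 10 nM 17beta-estradiol for 3 h before their poly(A) RNA was sequenced from both ends of each fragment. Their own Gata1 gene is disrupted, and they carry the erythroid transcription factor GATA1 fused to the hormone-binding part of an estrogen receptor, so estradiol switches GATA1 on. The 2 libraries form 1 group and are numbered as biological replicates 1 and 2. The labels tie them to a single cell sample, and the spread of values may therefore be technical. Untreated cells were not analysed here: every level below is a level after estradiol, and none is a response to it.

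Complex III passes electrons from ubiquinol to cytochrome c, cytochrome c carries them to complex IV, and complex IV reduces oxygen to water. Both complexes pump protons, and complex V, the ATP synthase, uses the returning protons to make ATP. The catalytic cores of complexes III and IV contain subunits made from mitochondrial DNA, whereas the subunits studied here are made in the cytoplasm and imported. Erythroid progenitors keep active mitochondria, which also carry out steps of heme synthesis, until the organelles are removed late in maturation.

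The libraries held 31126957 (replicate 1) and 57853617 (replicate 2) expected counts, which are estimated numbers of sequenced fragments. Gata1 stood at 190 and 799 TPM in replicates 1 and 2 (TPM is a level scaled to transcript length and to a common total), and a table of genes does not separate the disrupted locus from the fusion. All 10 erythroid markers reached 1 TPM in both libraries, from Slc4a1 at a mean of 1.94 TPM to Zfpm1 at 1933 TPM. None of 5 granulocyte and monocyte markers did, 1 of 4 mast cell markers did (Hdc), and 2 of 6 megakaryocyte markers did (Gp5 and Gp1ba). In sum the megakaryocyte list reached 166 and 139 TPM with Vwf and Ppbp at 0, the mast cell list 3.90 and 6.53 TPM with Mcpt4 and Fcer1a at 0, and the granulocyte and monocyte list 0.80 and 0.080 TPM with Itgam and Lyz2 at 0. The part of other cells in the results was not tested.

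The subunit genes had a higher median level than detected genes at large but were very uneven. Of the 46 members, 39 reached 1 TPM in both libraries, none reached it in only 1 library, and 7 stayed below it in both. In both libraries 34 members exceeded 10 TPM, 17 exceeded 100 TPM and 6 exceeded 1000 TPM. The median of the members' mean levels was 66.0 TPM over all 46 and 129 TPM over the 39 detected ones, beside 20.9 TPM over all 8777 detected genes. Together the members held 2.59% of all TPM in replicate 1 and 1.80% in replicate 2, and the 8 highest members held 83.8% and 76.9% of that sum. As a share of expected counts, which are not scaled to length, they held 1.04% and 0.925%. The highest mean level among detected members, that of Atp5b, was 1022-fold the lowest, that of Atp5e. The standard deviation of log2 mean TPM was 2.80 over the detected members, 2.27 over all detected protein-coding genes and 2.18 over 36 detected nuclear subunits of complex I. In bulk RNA, fewer cells that express a gene and less of its RNA per cell cannot be told apart.

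**Figure D1:**
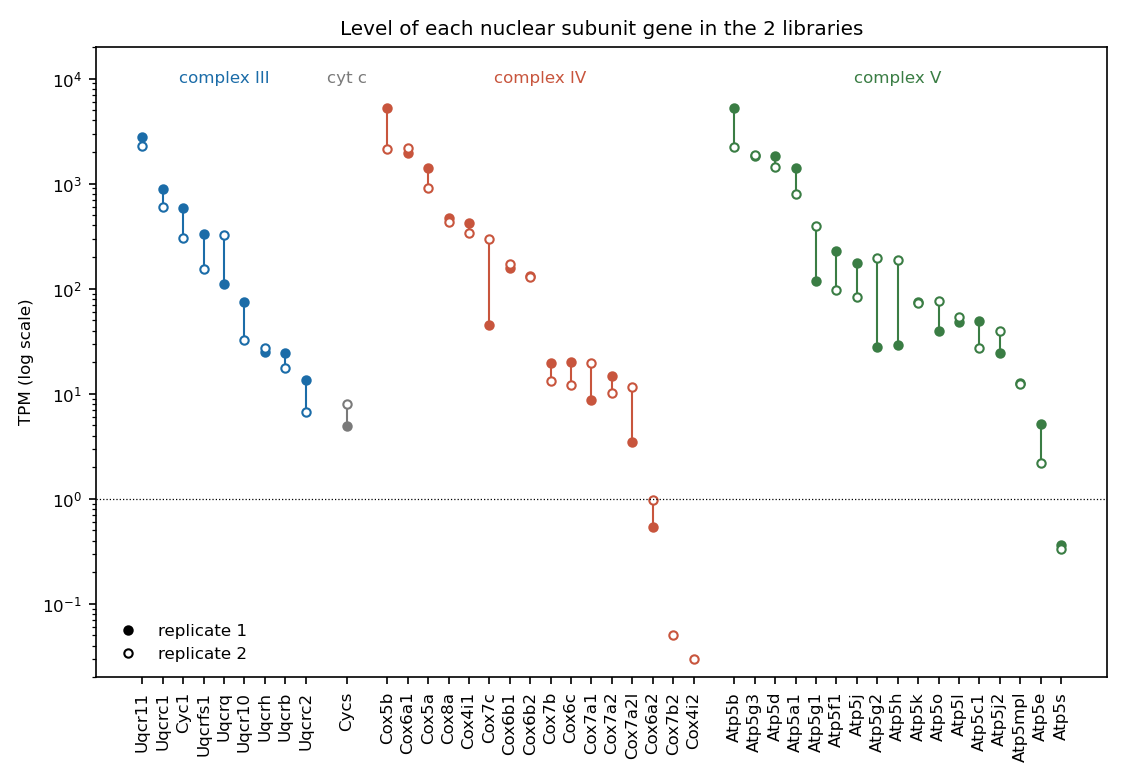
Level in TPM (log axis) of the 43 members with a count in either library, grouped by complex and ordered by mean level. Filled circles are replicate 1, open circles are replicate 2, lines join the pair and the dotted line marks 1 TPM; mean levels run from 2535 to 10.1 TPM in complex III and from 3757 to 0.345 TPM in complex V, and a value of 0 is not drawn.

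In complex III all 9 genes were detected, with a sum of 4833 TPM in replicate 1 and 3763 in replicate 2. Uqcr11 (chromosome 10, 80402997 to 80406830, minus strand), a small accessory subunit, was the highest with 2767 TPM in replicate 1 and 2302 in replicate 2 (mean 2535 ± 329, SD, n = 2). The large core subunit gene Uqcrc1 (chromosome 9, 108936633 to 108949623, plus strand) stood at 893 and 597 TPM in replicates 1 and 2. Its partner Uqcrc2 (chromosome 7, 120635176 to 120659524, plus strand) stood at 13.5 and 6.67 TPM. The proteins are present in equal numbers in the complex, yet the messages differed by 6.12 ± 0.24 (SD, n = 2) in log2(TPM + 1), with Uqcrc1 far higher in both libraries. Uqcrc2 was the lowest complex III gene.

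The electron carriers of complex III lay between these extremes. Cyc1 (chromosome 15, 76343523 to 76346260, plus strand), which encodes the heme protein cytochrome c1, reached 591 TPM in replicate 1 and 304 in replicate 2. Uqcrfs1, which encodes the Rieske iron-sulfur protein, stood at 334 and 154 TPM. Both were lower in replicate 2, and their ratio moved little, with Cyc1 higher by 0.90 ± 0.11 (SD, n = 2) in log2(TPM + 1). Uqcrq, a small subunit next to cytochrome b, went the other way, with 111 TPM in replicate 1 and 322 in replicate 2. The remaining small subunits were lower: Uqcr10 at 74.2 and 32.4 TPM, the hinge protein gene Uqcrh at 24.7 and 27.2 TPM, and Uqcrb at 24.4 and 17.7 TPM.

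Cytochrome c itself was low. Cycs (chromosome 6, 50562563 to 50566538, minus strand) had 4.94 TPM in replicate 1 and 7.93 in replicate 2. Among the 39 detected members only Atp5e had a lower mean. The testis form Cyct had no count in either library, where a count of 0 allows up to 3 counts.

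In complex IV 13 of 19 genes were detected, with a sum of 9903 TPM in replicate 1 and 6685 in replicate 2. Cox5b (chromosome 1, 36691449 to 36693681, plus strand), which encodes the zinc-binding subunit, was the highest with 5279 TPM in replicate 1 and 2129 in replicate 2 (mean 3704 ± 2227, SD, n = 2). Cox5a stood at 1398 and 907 TPM. It was below Cox5b in both libraries, by 1.57 ± 0.48 (SD, n = 2) in log2(TPM + 1). Cox6a1 stood at 1938 and 2208 TPM. Cox8a stood at 469 and 433 TPM, and Cox4i1, which encodes the subunit through which ATP inhibits the enzyme, at 419 and 341 TPM. Of the genes named so far in this complex, Cox6a1 alone was higher in TPM in replicate 2. Cox7c had 44.8 TPM in replicate 1 and 299.9 in replicate 2, as a ratio the widest gap among the detected genes of the complex. Cox6b1, whose product faces the intermembrane space near the cytochrome c site, stood at 156 and 171 TPM. Cox7b, at 19.6 and 13.2 TPM, and Cox6c, at 20.1 and 12.2 TPM, were low in both libraries.

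Complex IV is the complex with the most tissue-specific subunit forms, and here the widely expressed form led most pairs. Cox6a1 was 10.21 ± 0.12 (SD, n = 2) above the heart and muscle form Cox6a2 in log2(TPM + 1), and Cox6a2 stood at 0.54 and 0.98 TPM. The lung form Cox4i2 and Cox7b2 had no count in replicate 1 and 1 count each in replicate 2, and the muscle form Cox8b and the testis form Cox8c had none in either library. The sizes of the ratios against Cox4i1, Cox7b and Cox8a are not given for these 4 genes, which had at most 1 count. Cox6c2, which the annotation lists as a processed pseudogene, also had none. Because 2 values against 2 cannot give an exact permutation p below 0.33, ratios between genes carry no test.

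A different picture held for Cox6b and Cox7a. Cox6b2 (chromosome 7, 4751792 to 4753094, minus strand), known as the testis form, reached 133 TPM in replicate 1 and 129 in replicate 2, close to Cox6b1, which was higher by only 0.32 ± 0.12 (SD, n = 2) in log2(TPM + 1). On protein-coding transcripts alone Cox6b2 stood at 76.5 and 67.6 TPM and the gap was 1.17 ± 0.22. Germ cell markers were not examined. The muscle form Cox7a1 stood at 8.68 and 19.6 TPM, and the widely expressed Cox7a2 at 14.8 and 10.2 TPM. Cox7a2 was therefore higher in replicate 1 and Cox7a1 in replicate 2, and the mean log2 difference of -0.09 ± 1.12 (SD, n = 2) was smaller than its spread. Of 8 skeletal and heart muscle markers 7 stayed below 0.1 TPM in both libraries, with Myl2 and Ckm at 0 counts and the list at 1.81 and 1.26 TPM in sum. The related Cox7a2l, which encodes a factor that joins complexes III and IV into supercomplexes, stood at 3.50 and 11.5 TPM. Of the 13 pairs of forms or partners with a count on both sides in at least 1 library, 11 kept their order in both libraries. The 2 that did not are those of Cox7a2 with Cox7a1 and with Cox7a2l. The 11 include Cox4i1 over Cox4i2 and Cox7b over Cox7b2, where the lower gene had only 1 count in total.

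In complex V 16 of 17 genes were detected, with a sum of 11163 TPM in replicate 1 and 7580 in replicate 2. In the catalytic head, Atp5b (chromosome 10, 128083273 to 128090391, plus strand), which encodes the catalytic beta subunit, had 5277 TPM in replicate 1 and 2237 in replicate 2 (mean 3757 ± 2149, SD, n = 2). Atp5a1, which encodes the alpha subunit that alternates with beta, stood at 1401 and 804 TPM. The proteins are present in equal numbers, and Atp5b was higher by 1.69 ± 0.31 (SD, n = 2) in log2(TPM + 1). In the central stalk, the delta gene Atp5d stood at 1816 and 1430 TPM, the gamma gene Atp5c1 at 49.5 and 27.2 TPM, and the epsilon gene Atp5e at 5.17 and 2.18 TPM. The 3 stalk genes kept this order in both libraries and did not overlap.

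The ring that carries protons is built from subunit c, which Atp5g1, Atp5g2 and Atp5g3 encode as the same mature protein with different import signals. Atp5g3 (chromosome 2, 73908447 to 73911326, minus strand) was the highest and, in TPM, the steadiest, with 1835 TPM in replicate 1 and 1860.3 in replicate 2. Atp5g1 stood at 117 and 399 TPM, and Atp5g2 at 28.0 and 195 TPM. The order of the 3 genes was the same in both libraries. In the side stalk, the subunit b gene Atp5f1 stood at 230 and 96.8 TPM, the F6 gene Atp5j at 175 and 83.8 TPM, the subunit d gene Atp5h at 29.0 and 188 TPM, and the OSCP gene Atp5o at 39.6 and 76.1 TPM. In TPM, Atp5h and Atp5o were higher in replicate 2, and Atp5f1 and Atp5j were higher in replicate 1. The membrane subunits Atp5k, at 75.0 and 73.3 TPM, Atp5l, at 48.3 and 53.7 TPM, and Atp5mpl, at 12.7 and 12.5 TPM, differed little in TPM between libraries. In the comparison of counts described below, Atp5k and Atp5l were called higher in replicate 2 (log2 ratios -0.31 and -0.45). Atp5mpl was not called. Atp5j2 stood at 24.6 and 39.7 TPM. Atp5s, which encodes a coupling factor rather than a core subunit, was below 1 TPM in both libraries, at 0.36 and 0.33.

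The evenness within a complex was limited. Only 2 of 9 complex III genes, 3 of 13 detected complex IV genes and 6 of 16 detected complex V genes lay within 2-fold of the median of their own complex, beside 14 of 36 for complex I.

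The level of several genes rested on transcripts that are not annotated as protein-coding, and Atp5b was the extreme case. Transcript Atp5b-207, annotated as a processed transcript of 343 bases in 2 exons, took 26034 counts in replicate 1 and 20681 in replicate 2, or 96.3% and 92.4% of the gene's TPM. The full coding transcript Atp5b-201, of 1916 bases in 10 exons, took 8401 and 15621 counts. The short transcript shares 331 of its bases with the coding one, while its last 12 lie at other positions of the genome. Of the coding one, 1585 bases are not in the short one. The junction is shown because it is where they part. In the stretches below, capitals mark the bases after that junction, some of which carry the same letter in both. The stretches are from GRCm38, plus strand, 5′ to 3′. The first covers chr10:128084027-128084086, where the short transcript runs on past the splice site, and the second starts at the same base and continues in the next exon, ending at base 128084308.
Atp5b-207: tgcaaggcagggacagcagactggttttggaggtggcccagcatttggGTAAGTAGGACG
Atp5b-201: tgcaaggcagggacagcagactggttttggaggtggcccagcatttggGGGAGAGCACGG

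On protein-coding transcripts alone Atp5b reached 190 and 169 TPM in replicates 1 and 2, so the whole-gene level was 27.7-fold and 13.2-fold higher. Its rank among the members went from 1 to 14. Atp5a1 stood at 49.7 and 265 TPM on coding transcripts, since Atp5a1-204, annotated as a target of nonsense-mediated decay, took 96.3% and 67.1% of the gene's TPM. The order of Atp5b and Atp5a1 then differed between libraries, with a log2 difference of 1.92 in replicate 1 and -0.64 in replicate 2. Atp5f1 stood at 4.17 and 11.6 TPM on coding transcripts, with retained-intron transcripts in the lead. Atp5h stood at 17.2 and 8.79 TPM, opposite in direction to its whole-gene level, because Atp5h-207, a processed transcript, took 30.6% of its TPM in replicate 1 and 95.3% in replicate 2. Atp5g3 stood at 928 and 748 TPM.

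**Figure D2:**
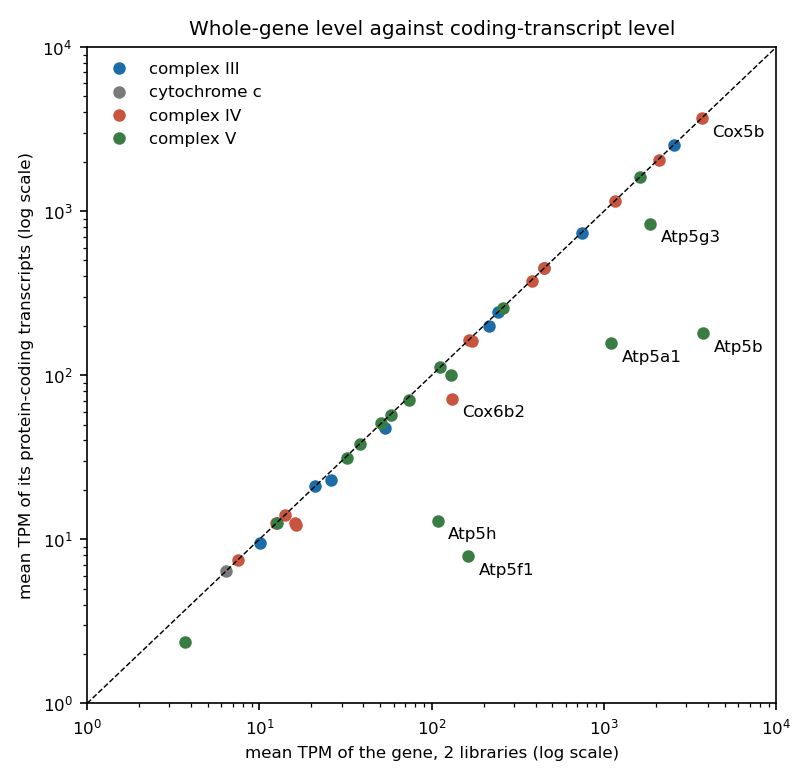
Mean TPM of each of the 39 detected members (x axis) against the mean TPM of its protein-coding transcripts (y axis), both over 2 libraries on log axes; the dashed line marks equality. Most genes lie on the line, and Atp5b, Atp5a1, Atp5f1 and Atp5h, all of complex V, lie far below it.

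The departures were concentrated in few genes. In 26 of 39 detected members over 90% of the TPM lay on protein-coding transcripts in both libraries, and in 3 members less than 50% did in both (Atp5b, Atp5a1 and Atp5f1), beside 1282 of 8281 detected coding genes (15.5%). The most abundant transcript was not protein-coding in 4 members in replicate 1 (10.3%) and 6 in replicate 2 (15.4%), beside 20.5% and 19.0% of all detected coding genes. It differed between the libraries in 5 members (12.8%), beside 1633 of 8175 detected coding genes. These were Uqcrq, Atp5f1, Cox6b2, Atp5h and Cox5b, the last led by Cox5b-206 of 344 bases in replicate 1 and Cox5b-204 of 865 bases in replicate 2. On protein-coding transcripts alone the mean share of all TPM went from 0.937% to 0.355% for complex V, from 0.829% to 0.816% for complex IV and from 0.430% to 0.426% for complex III, so complex V went from the highest share to the lowest of these. In sum 69.9% of the members' TPM in replicate 1 and 76.7% in replicate 2 lay on protein-coding transcripts. Short transcripts have few positions at which a fragment can start, so a count on them weighs more in TPM.

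The libraries were then compared gene by gene to see which levels repeated. With 1 library on each side, a two-sided exact binomial test on counts scaled by TMM measures counting noise only and compares these libraries, not conditions. Of 10635 genes tested, 80.7% lay beyond counting noise after Benjamini-Hochberg adjustment. Of the 41 members tested 33 did (80.5%), a share close to the background, with 13 higher in replicate 1 (beside 37.4% of all genes) and 20 in replicate 2 (beside 43.3%). The other 8 were not called, among them Uqcr11, Cox4i1, Atp5f1 and Cox7a2. Scaling by total counts instead of TMM gave 19 members higher in replicate 1 and 17 in replicate 2 (36 called, beside 81.8% of all genes). Over all genes it gave 4810 and 3890 of 10635, so the leading direction changed there too. That scaling moved the median log2 ratio of all genes from -0.06 to 0.11. The members' median log2 ratio of replicate 1 over replicate 2 was -0.19 with TMM and -0.040 with total counts.

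Larger differences ran mainly toward replicate 2, among the members as among all genes. At least 2-fold apart and beyond counting noise were 9 of 41 members tested (22%), all higher in replicate 2. Over all genes the share was 26.5%, with 19.3% higher in replicate 2 and 7.2% in replicate 1. The members' share toward replicate 2 was thus near that of all genes. The 9 members were Cox7c (log2 ratio of scaled counts -3.07), Atp5g2 (-3.00), Atp5h (-2.71), Uqcrq (-2.65), Cox7a2l (-2.02), Atp5g1 (-1.97), Cox7a1 (-1.40), Atp5o (-1.35) and Cycs (-1.03). Scaling by total counts put 8 higher in replicate 2 and 1 in replicate 1, beside 1705 and 1254 of 10635 genes (27.8% in either direction). With TMM the largest ratios in favour of replicate 1 were those of Uqcr10 (0.92), Uqcrc2 (0.80) and Uqcrfs1 (0.78), all of complex III. By complex, 5 of 9 tested genes of complex III were higher in replicate 1 and 2 in replicate 2. Complex IV gave 4 and 7 of 14, and complex V gave 4 and 10 of 17. Over all tested genes the shares were 37.4% and 43.3%. Whether the complexes differ was not tested.

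**Figure D3:**
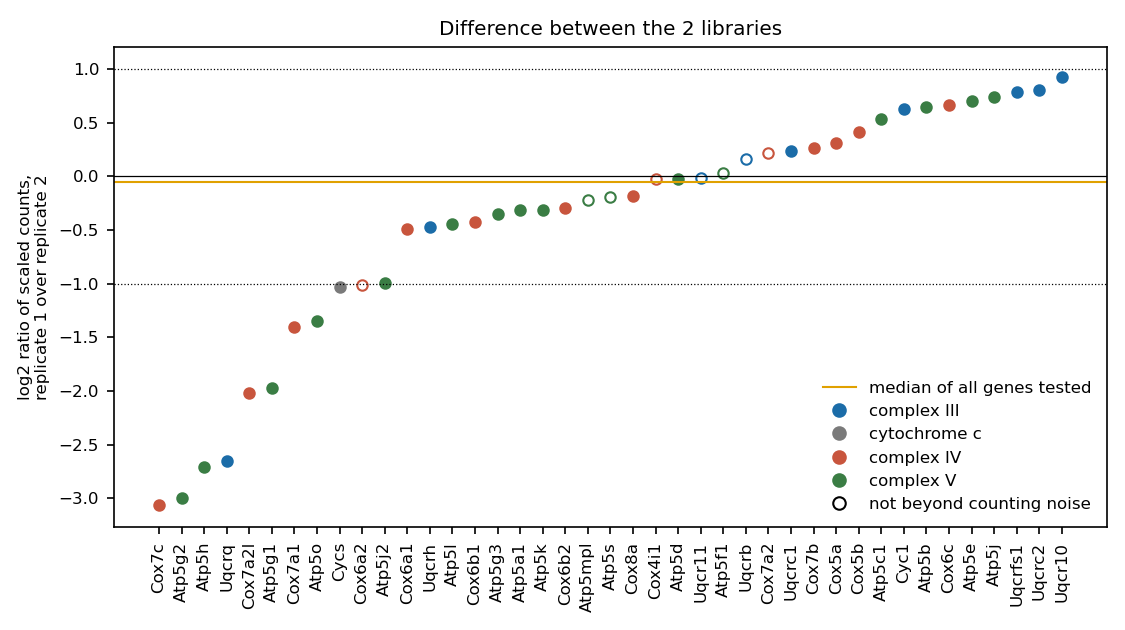
Log2 ratio of TMM-scaled counts, replicate 1 over replicate 2, for the 41 members tested, in order of the ratio and coloured by complex. Filled points lie beyond counting noise, the yellow line is the median of all genes tested at -0.06, and dotted lines mark 2-fold; 9 filled points lie below the lower dotted line and none above the upper.

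Scaled counts and TPM did not always point the same way. On TPM + 1 the median log2 ratio of the members was 0.12 and that of all tested genes 0.22, and 25 of 41 members were higher in replicate 1, beside 6593 of 10635 tested genes. Atp5a1 was 1401 and 804 TPM in replicates 1 and 2 but had a log2 ratio of scaled counts of -0.31. The coding transcript Atp5a1-201, of 2471 bases, took 1229 counts in replicate 1 and 30411 in replicate 2, while the 774-base Atp5a1-204 took 21332 and 17582.

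Several members with large differences share sequence with other genes. On the same strand 11 members shared at least 100 windows of 50 bases with another gene, and 7 of the 9 members at least 2-fold apart were among these, all but Uqcrq and Cox7a1. Shared sequence was not counted for all genes, so no background share stands beside the 7 of 9. Whether it has a part in the differences was not tested. Processed pseudogenes are DNA copies of a message, and that of Atp5g2 on chromosome 17, Gm10231 (5816200 to 5816640, minus strand), matched the coding part of transcript Atp5g2-202 at every one of 438 bases. The first 90 coding bases are printed for both because no fragment within them can be assigned to the gene or to the copy. They are from GRCm38, minus strand, 5′ to 3′, in exons between bases 102665805 and 102667749 of chromosome 15 for the gene and at chr17:5816551-5816640 for the copy.
Atp5g2-202: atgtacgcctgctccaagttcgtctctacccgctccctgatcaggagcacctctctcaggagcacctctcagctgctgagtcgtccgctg
Gm10231: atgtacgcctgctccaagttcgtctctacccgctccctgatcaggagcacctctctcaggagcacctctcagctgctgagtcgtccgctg

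Atp5g2 received 412 counts in replicate 1 and 5462 in replicate 2, while Gm10231 received 0 and 2836, or 32.3% of the replicate 2 counts of Atp5g2 and its copies together. A further copy, Gm10175, received 279 and 492 counts. Summing Atp5g2 with its copies left the log2 ratio at -2.94. For Atp5g1 the copy Gm10039 on chromosome 11 had 1 mismatch in 408 coding bases. The mismatch is the last base of the following 90, in capitals, from GRCm38, minus strand, in exons between bases 96073130 and 96073523 of chromosome 11 for the gene and at chr11:100361742-100361831 for the copy.
Atp5g1-202: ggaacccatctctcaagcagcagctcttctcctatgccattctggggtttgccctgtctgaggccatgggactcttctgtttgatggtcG
Gm10039: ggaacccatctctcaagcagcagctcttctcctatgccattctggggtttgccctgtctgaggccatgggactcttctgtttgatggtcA

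Atp5g1 received 1656 and 10702 counts, Gm10039 received 6.56 and 530, and their sum gave a log2 ratio of -2.03. For other members the ratio changed more when such genes were added. Cox7a2l received 81.7 and 558 counts against 266 and 144 on the pseudogene Gm6969, and the sum gave a log2 ratio of -0.29 instead of -2.02. Atp5o received 639 and 2682 counts against 1814 and 1414 on Donson, a neighbouring gene on the same strand that shares 238 windows with it. The sum gave -0.02 instead of -1.35 and was no longer called. Donson is annotated as protein-coding, and the sum takes in all of its counts. It therefore does not show whether shared reads have a part in the difference of Atp5o. Cycs moved from -1.03 to -0.93. With the sums in place 6 of 41 members were at least 2-fold apart (14.6%). The share over all genes was then 26.4%, but sums were made for members only, so the 2 shares are not alike. Cox7c stayed at -3.01 and Atp5h at -2.70.

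Several members also overlap a gene on the opposite strand, and whether counting used the strand is not given in the sources used here. Overlaps with genes that had more than 500 counts in both libraries were 5344 bases of Cox6c with Vps13b, 2204 of Atp5d with Cbarp, 731 of Atp5f1 with Wdr77, 701 of Atp5j with Gabpa and 352 of Cox4i1 with Emc8. Wdr77 received 5191 and 5985 counts, and Atp5f1 6047 and 9802. Others overlapped genes with few or no counts, such as Atp5o with Gm15976 over 3422 bases, Cox5a with Gm26631 over 1140 and Atp5a1 with Haus1 over 158 (41 and 320 counts). These spans are of whole genes, introns included. On opposite strands, the transcripts of Cox6c and Vps13b shared 202 windows of 50 bases and those of Atp5f1 and Wdr77 242. Atp5j and Gabpa shared 201, and Cox4i1 and Emc8 105. Atp5d with Cbarp and Atp5a1 with Haus1 shared fewer than 100. Reads within shared stretches cannot be told apart without strand, so levels that hold such reads are uncertain.

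Level was also set beside base composition. Across the 39 detected members, which share both libraries, GC content of the longest protein-coding transcript and log2 mean TPM had a Pearson correlation of 0.42 and a Spearman correlation of 0.41, beside 0.26 and 0.27 over 8261 detected coding genes. The 6 members below 45% GC had a median of 14.5 TPM and included Uqcrc2, Cycs, Uqcrb, Cox7b and Atp5mpl, with Cox7c as the only one above 25 TPM. The 9 members from 45% to 50% had a median of 163 TPM and the 13 from 50% to 55% one of 74.1 TPM. The 11 members at 55% or more had a median of 448 TPM and a lowest value of 53.3 TPM, that of Uqcr10. The member medians did not rise steadily from class to class. Those of all detected coding genes did, at 12.2, 16.5, 25.1 and 42.1 TPM. Within complex IV (13 genes) the Pearson correlation was 0.28 and within complex V (16 genes) 0.22. Whether base composition has a part in the levels was not tested.

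**Figure D4:**
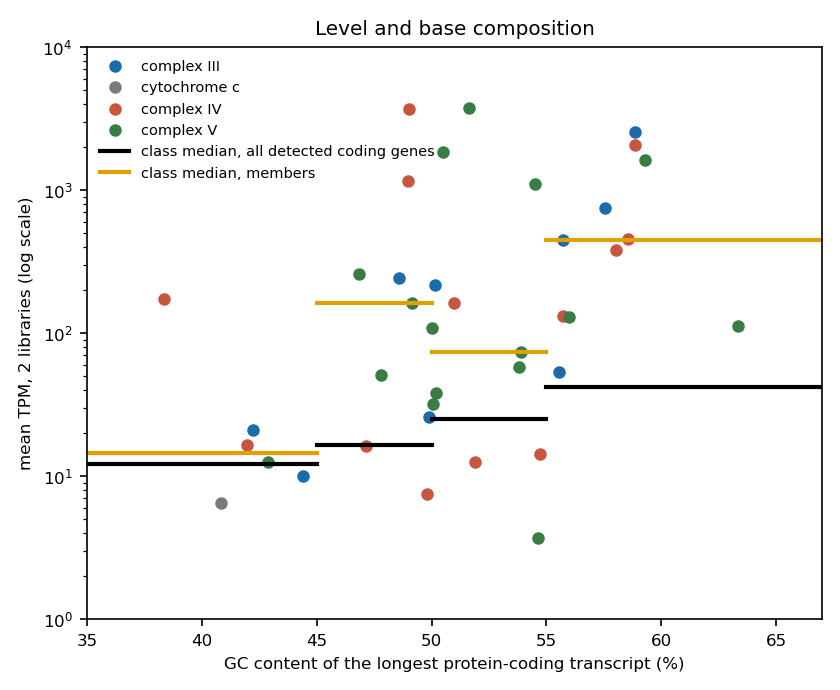
Mean TPM over 2 libraries (log axis) of the 39 detected members against the GC content of their longest protein-coding transcript, coloured by complex. Yellow bars are medians of the members and black bars medians of all detected coding genes in 4 GC classes; the member medians are 14.5, 163, 74.1 and 448 TPM from the lowest GC class to the highest.

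Called differences between libraries were also counted by effective length. Among the 17 members under 500 bases 3 were higher in replicate 1 and 11 in replicate 2, with a median log2 ratio of -0.31, beside 261 and 273 of 671 tested genes of that class, whose median was -0.04. Among the 16 members of 500 to 1000 bases the counts were 5 and 8, with a median of -0.17, beside 615 and 809 of 1769 genes and a median of -0.11. Among the 7 members of 1000 to 2000 bases 5 were higher in replicate 1 and 0 in replicate 2, with a median of 0.53, beside 1169 and 1416 of 3189 genes and a median of -0.09. The only longer member, Cycs, went the other way and was higher in replicate 2, with a log2 ratio of -1.03. The Spearman correlation of length with the log2 ratio was 0.26 over 41 members and 0.07 over all genes.

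Promoters were searched for motifs of factors known to control respiratory genes: NRF1, the ETS family factor GABP, and YY1. RefSeq promoters of GRCm38.p6, each 300 bases long (250 before and 50 after the start), were found for 34 members. Members were matched by Ensembl identifier or, failing that, by symbol or synonym, and detected genes by symbol only. On either strand, the NRF1 motif was found in 8 (23.5%), beside 5.19% of all genes with such promoters and 14.3% of 6763 detected genes. The ETS letters CCGGAAG were found in 10 (29.4%), beside 9.93% of all and 25.2% of detected genes. The YY1 letters AANATGGC were found in 5 (14.7%), beside 6.96% and 12.4%, and CCAAT in 19 (55.9%), beside 41.1% and 43.97%. TATAAA was found in 3 (8.82%), beside 15.7% and 7.02%. For each of the 5 motifs the members' share was closer to that of detected genes than to that of all genes. The 34 include Atp5s, Cox7b2 and Cox8b, which were not detected, so the sets are not quite alike. TATAAA was found in Atp5l, Cox7b2 and Cox8b. NRF1 matches were found in Atp5c1, Atp5g2, Atp5g3, Atp5h, Atp5k, Atp5o, Cox6a1 and Uqcrc1. The NRF1 letters searched are not a palindrome, and some of these matches did not read the same on the opposite strand.

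Cox6a1, among the 6 members above 1000 TPM in both libraries, carried 2 NRF1 matches and 1 ETS match. It is printed as the richest example: the 250 bases before its RefSeq start at chr5:115348959-115349208, minus strand, 5′ to 3′, with the 3 matches in capitals (the ETS match reads on the opposite strand).
Cox6a1: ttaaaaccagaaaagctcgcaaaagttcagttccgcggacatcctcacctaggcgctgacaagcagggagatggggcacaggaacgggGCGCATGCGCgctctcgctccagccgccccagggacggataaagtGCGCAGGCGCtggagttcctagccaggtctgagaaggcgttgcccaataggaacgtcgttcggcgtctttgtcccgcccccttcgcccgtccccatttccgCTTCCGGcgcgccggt

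Levels were also set beside the matches. Detected members with an NRF1 match had a median of 110.1 TPM (8 genes) and those without 131 TPM (23 genes), and for ETS the medians were 119 TPM (10 genes) and 131 TPM (21 genes). For YY1 they were 129 TPM (5 genes) and 121 TPM (26 genes). Members with CCAAT had a median of 53.3 TPM (17 genes) and those without 168 TPM (14 genes). The levels with and without a match overlapped for all 4 motifs. A match is a description of sequence and not a binding site. The factors themselves were detected at modest levels: Nrf1 at 17.6 and 11.1 TPM in replicates 1 and 2, Gabpa at 9.82 and 5.41 TPM, and Yy1 higher at 349 and 155 TPM. Of the 14 listed regulators 12 were detected, and Ppargc1a, a coactivator of mitochondrial biogenesis in muscle and liver, had no count.

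The partners of these subunits were present too. Of the subunits that mitochondrial DNA encodes, mt-Cytb of complex III had 2569 TPM in replicate 1 and 1119 in replicate 2. In complex IV, mt-Co1 stood at 511 and 246 TPM, mt-Co2 at 124 and 37.2 TPM, and mt-Co3 at 328 and 2.17 TPM. In complex V, mt-Atp6 stood at 944 and 222 TPM and mt-Atp8 at 1334 and 1388 TPM. By scaled counts 5 of the 6 were higher in replicate 1 and mt-Atp8 in replicate 2, with a median log2 ratio of 1.14 beside -0.19 for the nuclear members. Selection for poly(A) tails captures mitochondrial messages unevenly.

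The other nuclear genes of the pathway also varied between libraries. Of 37 complex I subunits tested 10 were higher in replicate 1 and 24 in replicate 2, with a median log2 ratio of -0.53, led in level by Ndufab1 at 2975 and 1694 TPM. Of 8 complex II genes, led by Sdhb at 40.8 and 187 TPM, 2 were higher in replicate 1 and 5 in replicate 2. Assembly factors of complex IV, led by the copper chaperone Cox17 at 275 and 477 TPM, gave 7 and 14 of 22. Those of complex III gave 4 and 2 of 6, led by Uqcc2 at 529 and 325 TPM. In complex V assembly and regulation 3 and 1 of 5 were called, led by the inhibitor gene Atpif1 at 66.2 and 386 TPM. Over all tested genes 37.4% were higher in replicate 1 and 43.3% in replicate 2. The lists were chosen with earlier results of these data known, and whether they differ from the members was not tested.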

How the data were processed

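RNA from 2 libraries of 1 group (G1E-ER4 cells, 3 h of estradiol) was analysed. The authors aligned reads to mm10 and quantified GENCODE M4 from transcriptome alignments, per the text deposited with the tables. The aligner and the quantifier, with their version numbers, were not given in the sources used here. The deposited expected counts are estimated fragments per feature and were rounded for tests. The deposited TPM values are scaled by the authors to transcript length and to the same sum in each library, and the deposited FPKM values to effective length and library size. The percent of a gene's TPM in each transcript was also deposited by the authors. Replicates were not pooled. Entries that are not mouse genes (26345, holding 1 count) were left out.

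Gene models and sequences were those of GENCODE M21 (GRCm38, the same assembly as mm10), so gene models may differ from those counted. Genes were called detected at 1 TPM. Genes with a summed count of at least 20 were tested with two-sided exact conditional binomial tests on library sizes scaled by TMM (edgeR 4.0.16), Benjamini-Hochberg 0.05 over all of them, since 1 library a side leaves edgeR's quasi-likelihood test without residual degrees of freedom. Log2 ratios used a prior count of 2, and gene pairs log2(TPM + 1), which understates differences of low genes. Replicate 1 summed to 31126957 expected counts and replicate 2 to 57853617, and counting error is widest for low members. On simulated counts of 10666 genes the test called 90% of 100 genes given a 1.5-fold change and 100% of 100 given a 4-fold change. Of all calls made, 5.47% were false. The simulated counts held counting noise only, and the changed genes had a summed count of at least 100. The simulation therefore does not cover spread beyond counting noise or changes in genes with fewer counts. Intervals and limits of 3 counts cover counting error only. DESeq2 1.42.0 size factors, total counts, posterior mean values, other filters and pseudocounts were alternatives. Detected members at 1 TPM or more in both libraries were named, members below by counts except in pairs, all 6 mitochondrial subunits, and the leading genes of other lists. Members and gene lists were chosen with earlier results of these data known.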

Additional observations from a re-analysis of the deposited data

How the results depend on the processing

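No paired analysis was possible because there is 1 group only. The share of all TPM held by the members, 2.20% on average, was 0.984% as a share of expected counts, which do not weigh short transcripts more, and 1.60% on protein-coding transcripts only, an alternative chosen after seeing the data, as were the sums with genes that share sequence. The median log2 ratio of the members, -0.19, was -0.040 with total counts and reversed to 0.12 on TPM + 1. Over all tested genes the median was -0.06, 0.11 and 0.22 in the same order, above that of the members each time. The median share of the leading transcript, 95.4%, was 94.1% from posterior means and ranged from 95.7% to 96.3% when either library was left out. The difference of Atp5d reversed from -0.02 to 0.15 with total counts. Of 244 recomputed differences of single members 234 kept their side of the threshold, 4 were lost, 5 were gained and 1 reversed. Direction was compared only for members called in the main analysis. Uqcr11 and Cox4i1, not called there at -0.017 and -0.027, were among those gained, at 0.16 and 0.15 with total counts. Under the alternatives run, members called numbered 32 to 36 (33 in the main analysis) and members at least 2-fold apart 6 to 10 (9 in the main analysis, 6 with the sums). The protein identity of the paralogs was not run. At 83 counts in each library for Atp5e and 49 and 218 for Cox7a1, depth limits the low members.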
